A study of Mus musculus with 11 samples.

Results

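The genes described here encode the collagens, other structural proteins and modifying enzymes of the extracellular matrix, the protein scaffold that lies beneath the intestinal epithelium and between the cells of the gut wall. A list of 43 symbols was read from the count table, and 42 of them averaged at least 1 CPM (counts per 1000000 counts) over the 11 libraries, of 31168 genes in all. The remaining gene, Mfap5, which encodes a microfibril glycoprotein, averaged 0.726 ± 0.525 CPM in WT and 0.329 ± 0.319 in dIEC and was not tested. Each library is the RNA of a 2 cm piece of distal ileum, the end of the small intestine, from a mouse given dextran sodium sulfate, a polysaccharide that injures the intestinal lining. All mice carried floxed H2-Ab1 alleles, the gene of a chain of MHC class II, which presents peptides to CD4+ T cells. The 6 WT mice lacked the Villin:Cre transgene (H2-Ab1 fl/fl; Villin:Cre-), and the 5 dIEC mice carried it (H2-Ab1 fl/fl; Villin:Cre+). The villin promoter drives Cre in the epithelium of the intestine, so that the allele is targeted there and not in the stromal cells that make most of the matrix. Sex, age and the dose and duration of dextran sodium sulfate were not stated in the labels, and no untreated mice are included. The design text of the series gives both genotypes as Cre-negative, so the genotype labels of the single samples were followed.

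Fibrillar collagens are triple helices of long repetitive chains that are secreted by fibroblasts, trimmed outside the cell, packed into fibrils and fixed by crosslinks that lysyl oxidases start. Small leucine-rich proteoglycans coat these fibrils and set their width and spacing. Elastic fibres are built of an elastin core on a scaffold of fibrillin microfibrils. Basement membranes, the thin sheets under epithelium and around vessels, muscle cells and nerves, are networks of type IV collagen and laminin joined by nidogen. In the ileum, fibroblasts of the lamina propria and submucosa, pericytes, endothelium and smooth muscle all contribute, and the submucosa is the layer richest in fibrillar collagen.

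Totals per library were 6603965 to 9681698 counts. H2-Ab1, the targeted gene, ranged from 47.5 to 112 CPM in WT and, without overlap, from 16.8 to 39.2 CPM in dIEC (two-sided exact permutation p = 0.00433, the smallest that this design allows). Its edgeR adjusted p over all genes was 0.361. Markers of the ileal epithelium (Fabp6, Slc10a2, Slc51a and Slc51b) were present in every library, their sum ranging from 231 to 799 CPM in WT (median 333) and from 405 to 816 CPM in dIEC (median 641). The piece is whole gut wall, so a lower value can come from fewer cells of a type or from less RNA per cell, and these cannot be told apart in bulk RNA. CPM values below are scaled with TMM factors, which adjust library totals for differences in composition. Fold changes are log2 values from edgeR, dIEC against WT, given with their standard error. Values of the dIEC libraries are listed in the order of replicates 1, 3, 5, 6 and 11, and those of the WT libraries by their lowest, median and highest value.

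Matrix genes were lower on average in the dIEC ileum almost throughout, but no single one passed the test over all genes. Of the 42 genes, 41 had log2 fold changes below 0, against 51.2% of the 15911 genes tested, and their median was -0.59, against -0.01 for all genes. At or below -0.5 lay 28 of them, against 5.96% of all genes. By edgeR's quasi-likelihood test with Benjamini-Hochberg adjustment 0 of them passed 0.05, against 0% of all genes called lower and 0.00628% called in either direction (1 gene, the metallothionein Mt1, which was higher). DESeq2 also called 0 of them, against 0.0126% of all genes called lower and 0.0566% higher. At an unadjusted p under 0.05, 29 of the 42 lay lower and 0 higher, against 5.79% and 4.87% of all genes. That count was 29 with all libraries and 14 without dIEC replicate 1, 16 without dIEC replicate 11, 17 without WT replicate 2, 17 without WT replicate 4 and 18 without WT replicate 7, and limma-voom gave 15. The genes varied together from library to library, so these are not counts of independent events. The members, and the marker and further lists below, were chosen with earlier results of these data known, so these shares are not independent evidence. In 0 of the 42 did every dIEC library lie below every WT library (0.333% of all genes).

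Single libraries stood apart within their groups. WT replicate 8 was the lowest WT library in 40 of the 42 genes (in 27.1% of all genes). It was the lowest of all 11 libraries in 20, a count that was not made over all genes. Among the dIEC libraries, replicate 1 was the lowest in 23 (26.4% of all genes), and it was the lowest of all 11 in 18 (18.9%). WT replicate 4 was the highest of all in 23 (12.5%). The summed level of the 42 genes was 1158 CPM in WT replicate 8 and 1692 to 3076 CPM in the other WT libraries. In dIEC replicates 1, 3, 5, 6 and 11 it was 1121, 1531, 1799.7, 1914 and 1275 CPM. WT replicates 8 and 12 lay below dIEC replicate 6, the highest dIEC library, and the other 4 WT libraries lay above every dIEC library. Without WT replicate 8, 10 matrix genes passed edgeR's adjusted threshold, all lower in dIEC (Col5a2, Col12a1, Col14a1, Col15a1, Lamb1, Nid1, Lum, Dpt, Fbn1 and Timp2), against 0.671% of all genes lower and 1.35% higher. With dIEC replicate 1 left out as well, 0 passed (0% of all genes lower) and 38 had an unadjusted p under 0.05. No matrix gene passed with any other single library left out, so adjusted values given below without WT replicate 8 hold for that fit only. The map of all members by library shows these libraries as columns.

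**Figure D1:**
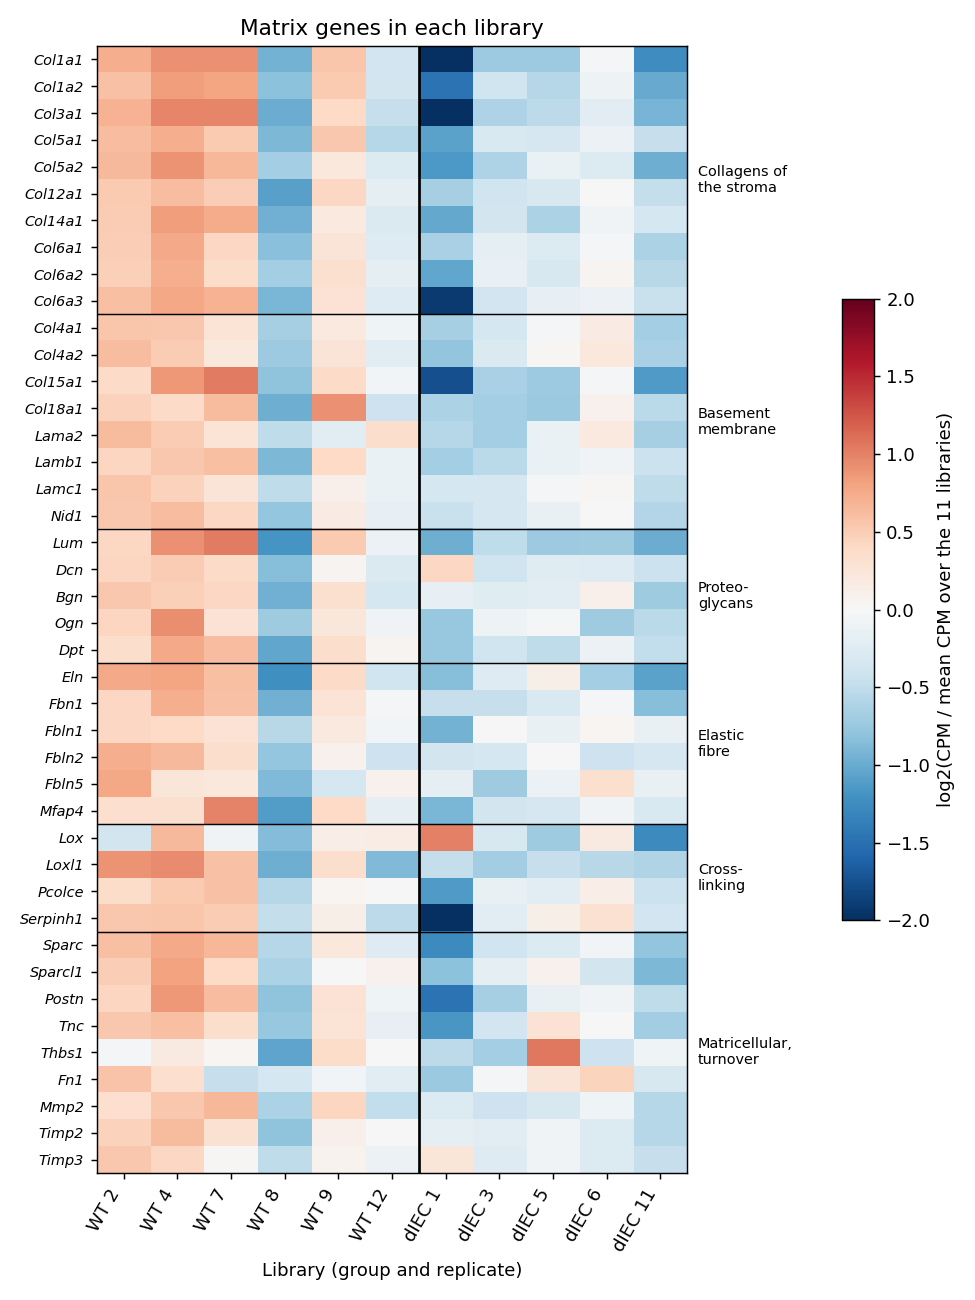
Levels of the 42 matrix genes (rows, grouped by role) in each library (columns, WT left of the line, dIEC right), as log2 of CPM over the gene's mean CPM across the 11 libraries; the colour scale is limited to 2 on either side. WT replicate 8 stands out from the other WT libraries by low values in nearly all rows, and dIEC replicate 1 by very low collagens beside high Dcn and Lox.

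Markers of the cell types of the gut wall also differed on average, those of fibroblasts, muscle and vessels being lower and those of epithelium higher in dIEC. Of 18 fibroblast markers that are not matrix proteins, 14 were tested and 13 lay below 0 (median -0.27, range -0.79 to 0.86). At an unadjusted p under 0.05, 4 were lower and 1 higher, against 5.79% and 4.87% of all genes. The sum of the 18 ranged from 122 to 339 CPM in WT (median 268) and from 138 to 212 CPM in dIEC (median 162). Twist1, Twist2 and Prrx1, transcription factor genes of mesenchyme, were below 1 CPM on average. Smooth muscle markers lay below 0 in 14 of 14, with a median of -0.42, and their sum ranged from 2720.3 to 5676 CPM in WT (median 3249.7) and from 1545 to 3786 CPM in dIEC (median 3170.0). In 14 of these 14 dIEC replicate 1 was the lowest of all libraries (18.9% of all genes), and in 12 WT replicate 4 was the highest (12.5%). Without dIEC replicate 1 the median was -0.27. Pericyte markers lay below 0 in 6 of 6, with a median of -0.49 and a sum from 156 to 466 CPM in WT (median 320.1) and from 171 to 293 CPM in dIEC (median 203). Endothelial markers did so in 14 of 15, with a median of -0.33 and a sum from 68.1 to 147 CPM in WT (median 105) and from 74.8 to 104 CPM in dIEC (median 90.9). The neuron and glia markers tested, 12 in number, had a median log2 fold change of -0.39, and the median sum was 202 CPM in WT and 299 CPM in dIEC. For adipocytes the median log2 fold change was -0.18 over 5 markers, and the median sum 40.1 CPM in WT and 56.1 CPM in dIEC. For lymphocytes these were 0.56 over 4 markers, 271 CPM and 222 CPM, so that in these 3 lists the sum and the median log2 fold change pointed in opposite directions. The median log2 fold changes were -0.22 for 4 mesothelial markers (median sum 9.73 CPM in WT and 6.90 CPM in dIEC) and -0.04 for 8 macrophage markers (82.9 and 65 CPM). Epithelial markers lay above 0 in 13 of 13, with a median of 0.24, and their sum ranged from 2447 to 4232 CPM in WT (median 2761) and from 3013 to 3996 CPM in dIEC (median 3611). Enterocyte markers lay above 0 in 8 of 8, with a median of 0.66, and their sum ranged from 1404 to 5963 CPM in WT (median 1731) and from 2014 to 5267 CPM in dIEC (median 4459.6). The summed enterocyte markers were highest in WT replicate 8, at 5963 CPM, the WT library with the lowest matrix sum. Counts of ribosomal RNA made up 34.6 ± 6.91% of a WT library (SD, n = 6) and 40.5 ± 8.50% of a dIEC library (n = 5). No marker of these lists passed edgeR over all genes with all libraries (0 called), and no marker was at 0 in all libraries. Without WT replicate 8, the fit in which 10 matrix genes passed, 0.671% of all genes passed as lower and 1.35% as higher. Those lower included Pdgfra and Wnt2b of the fibroblast list, Rgs5 of pericytes and Flt4 of endothelium. In the same fit Krt20, Vil1 and Cldn7 of epithelium, Sis, Anpep and Slc5a1 of enterocytes and Slc10a2 and Slc51a of the ileal list passed as higher. The median without that library was 1.12 for enterocyte, 0.38 for epithelial, 1.03 for ileal (against 0.60 with it) and -0.41 for fibroblast markers. The part of these cell types and of ribosomal RNA in the matrix result was not tested.

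**Figure D2:**
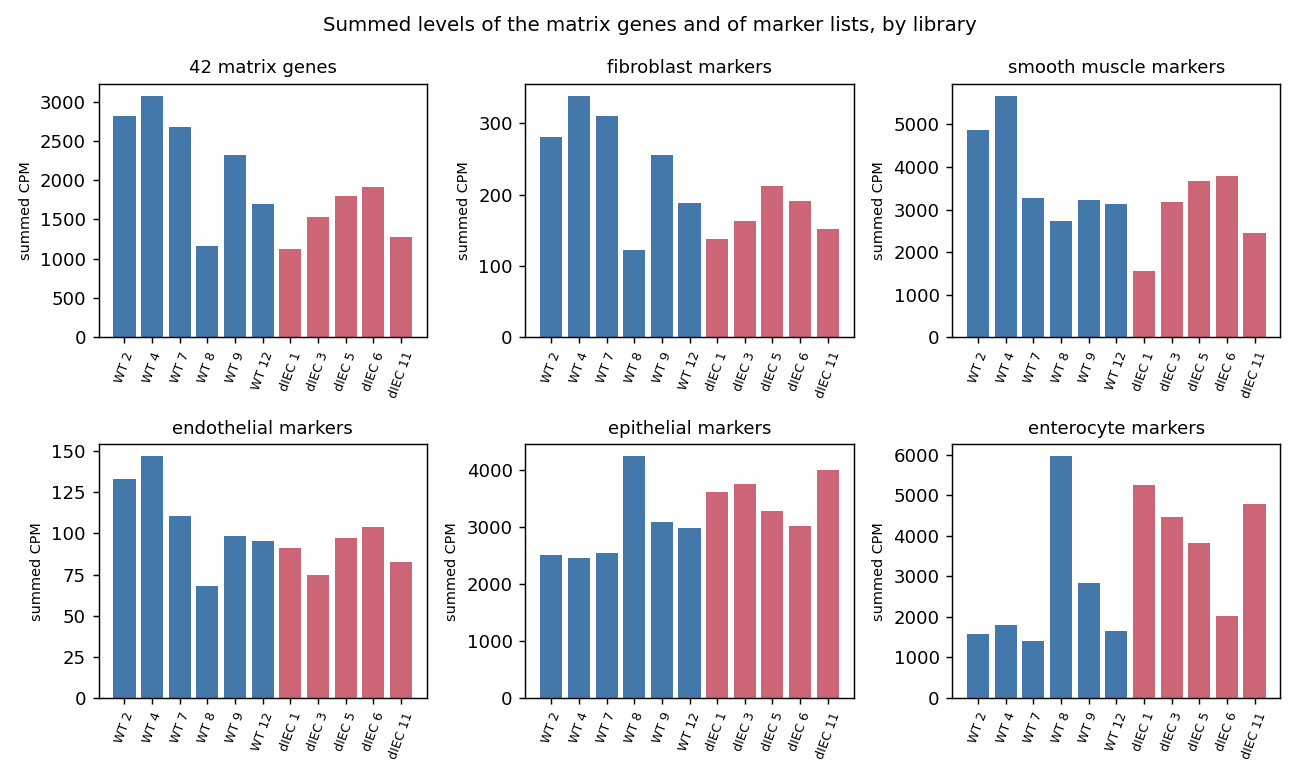
Summed CPM (bars, from 0) of the 42 matrix genes and of 5 marker lists in each library, WT in blue and dIEC in red. WT replicate 8 joins the lowest fibroblast sum, 122 CPM, to the highest enterocyte sum, and dIEC replicate 1 has the lowest smooth muscle sum, 1545 CPM.

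Upstream sequences of the matrix genes were examined because the genes vary together. RefSeq windows (GRCm38.p6) were at hand for 27 of the 43 listed genes. In the 250 bases before the annotated start, TATAAA (either strand) occurred in 3 (Col3a1, Ogn and Tnc) of 27 against 13.0% of 27025 windows of all genes, and GGGCGG, the core of the GC box, in 16 against 32.9%. CCAAT occurred in 8 (34.5% of all windows), TGANTCA, the core of the AP-1 motif, in 1 (6.87%), and GGAATG, a core of TEAD motifs, in 4 (12.6%). Both strands were searched, and matches of different motifs may share end bases. The windows of Col3a1 (chr1:45311288-45311537, plus strand) and Ogn (chr13:49607765-49608014, plus strand) are shown for TATAAA, and those of Bgn (chrX:73483351-73483600, plus strand) and Col5a1 (chr2:27886175-27886424, plus strand) for GGGCGG. These 4 lie outside annotated exons. Of the 27 windows 15 overlap an annotated exon of some transcript, 4 of them over their whole length (Col4a1, Col4a2, Fbln2 and Fbn1), and the 15 include 11 of the 16 with GGGCGG and 0 of the 3 with TATAAA. Exon overlap was not counted for the windows of all genes. Capitals mark either motif on either strand, and each run is 250 bases, 5′ to 3′, ending at the base before the start of the transcript.
Col3a1: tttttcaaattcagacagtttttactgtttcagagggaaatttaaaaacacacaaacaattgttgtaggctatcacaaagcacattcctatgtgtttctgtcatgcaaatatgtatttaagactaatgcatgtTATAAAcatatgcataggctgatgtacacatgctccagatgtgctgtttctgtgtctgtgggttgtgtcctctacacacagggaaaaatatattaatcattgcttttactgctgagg
Ogn: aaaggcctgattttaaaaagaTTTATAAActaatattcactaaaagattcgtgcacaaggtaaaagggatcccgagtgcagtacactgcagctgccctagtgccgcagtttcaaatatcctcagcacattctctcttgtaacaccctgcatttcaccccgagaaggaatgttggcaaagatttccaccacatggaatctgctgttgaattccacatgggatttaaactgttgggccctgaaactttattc
Bgn: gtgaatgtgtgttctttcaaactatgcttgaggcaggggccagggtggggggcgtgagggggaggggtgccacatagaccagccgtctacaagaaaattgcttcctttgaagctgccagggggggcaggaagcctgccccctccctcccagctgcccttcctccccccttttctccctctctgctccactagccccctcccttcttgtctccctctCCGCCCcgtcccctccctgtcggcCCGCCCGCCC
Col5a1: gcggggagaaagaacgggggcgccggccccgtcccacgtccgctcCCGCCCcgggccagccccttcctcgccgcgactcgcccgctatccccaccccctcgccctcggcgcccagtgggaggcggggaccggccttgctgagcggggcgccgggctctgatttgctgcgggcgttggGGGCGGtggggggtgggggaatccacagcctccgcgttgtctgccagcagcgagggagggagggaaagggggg
The first pair has a TATAAA starting 117 bases before the start in Col3a1 and overlapping matches from 229 to 222 bases before it in Ogn. The other pair has GGGCGG on one strand or the other and no TATAAA. Genes of both kinds lay lower in dIEC: Col3a1 at -1.22 ± 0.44, Ogn at -0.67 ± 0.24, Col5a1 at -0.71 ± 0.29 and Bgn at -0.39 ± 0.24 (log2 fold change ± SE). Since 41 of the 42 matrix genes lay below 0, nearly any choice of windows would do so, and the kinds were not compared. A match is a description of letters and was not tested as a binding site.

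The fibrillar collagens and those bound to them had the lowest median of the 6 role groups with all libraries. All 10 of 10 lay below 0, from -1.27 to -0.56, with a median of -0.77. All 10 had an unadjusted p under 0.05 and 0 passed the adjusted threshold (edgeR adjusted p = 0.427 to 0.444). Col1a1, the alpha 1 chain of type I collagen (chromosome 11 from 94936224 to 94953042, plus strand, GRCm38), ranged over 35.7 to 129.8 CPM in WT (median 107) and had 14.7, 41.8, 41.7, 66.9 and 29.1 CPM in dIEC. Its means were 93.8 ± 40.3 in WT and 38.9 ± 19.2 in dIEC, a 2.41-fold difference (log2 fold change -1.27 ± 0.41). Its dIEC values were below the WT median in 5 of 5 libraries, and dIEC replicate 6 overlapped WT replicates 8 and 12. Col1a2, the chain that pairs with it (chromosome 6 from 4504814 to 4541544, plus strand), had 47.5 to 149.9 CPM in WT (median 124) and 30.3, 63.8, 57, 78.8 and 41.8 CPM in dIEC. The log2 fold change was -1.01 ± 0.32, and WT replicates 8 and 12 again lay within the dIEC range.

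Col3a1, the chain of type III collagen, which is laid into the same fibrils (chromosome 1 from 45311538 to 45349706, plus strand), had 76.2 to 299.9 CPM in WT (median 222) and 24.3, 99.1, 106, 131 and 79.3 CPM in dIEC, with a log2 fold change of -1.22 ± 0.44. The lowest value of all libraries, in dIEC replicate 1, was less than the lowest WT value of 76.2 CPM in replicate 8, and without dIEC replicate 1 the log2 fold change was -0.98. Col5a2, a chain of type V collagen, which nucleates fibrils and limits their width, had the lowest p of the group. Its levels were 15.8 to 47.2 CPM in WT (median 34.5) and 11.4, 16.5, 23, 20.9 and 12.8 CPM in dIEC (log2 fold change -0.94 ± 0.28, unadjusted p = 0.00566, edgeR adjusted p = 0.427, and 0.0472 without WT replicate 8). Its partner Col5a1 had a log2 fold change of -0.71 ± 0.29.

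Col6a3, a chain of type VI collagen, which forms beaded filaments around cells and fibrils, had 45.1 to 144 CPM in WT (median 116) and 22.5, 65.1, 75.3, 78 and 62 CPM in dIEC. It had the highest p of the group (log2 fold change -0.79 ± 0.34, unadjusted p = 0.0393). The other chains, Col6a1 and Col6a2, stood at -0.56 ± 0.24 and -0.60 ± 0.24. Col14a1, a collagen that binds to fibril surfaces, had 8.89 to 31 CPM in WT (median 22.2) and 8.52, 13.5, 11.2, 16.5 and 13.5 CPM in dIEC, and Col12a1, its relative, had a log2 fold change of -0.59 ± 0.25. In 10 of the 10 genes dIEC replicate 1 was the lowest dIEC library, and in 10 WT replicate 4 was the highest of all. Without WT replicate 8 the median of the group was -0.93 and Col5a2, Col12a1 and Col14a1 passed. Without dIEC replicate 1 the median was -0.61, close to the -0.59 of the small proteoglycans in that fit.

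**Figure D3:**
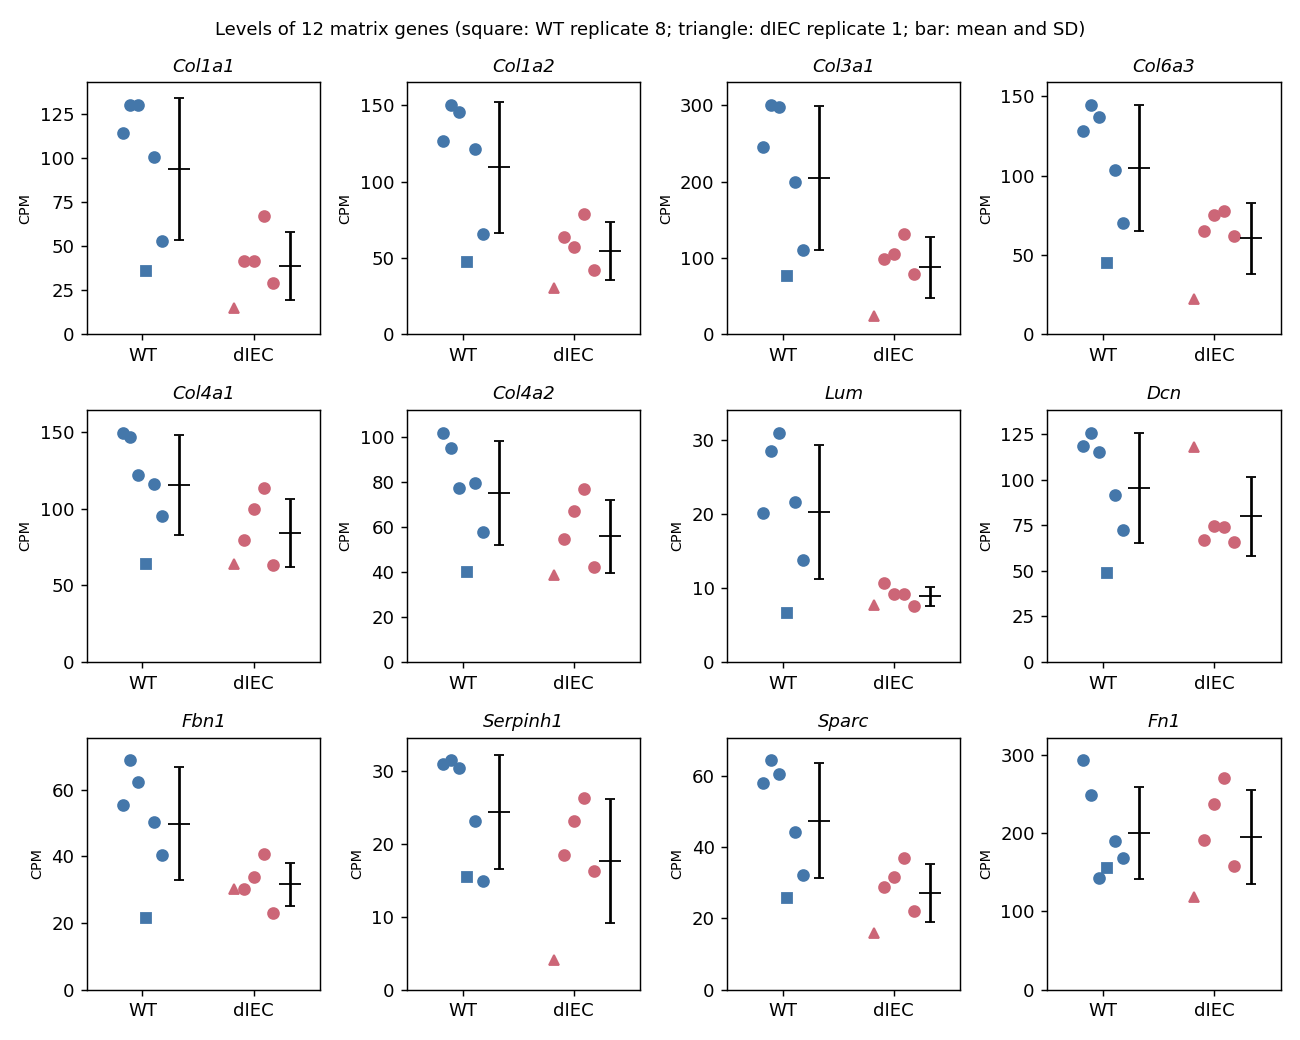
CPM (linear axes from 0) of 12 matrix genes in each library, WT in blue and dIEC in red, with the mean and SD of each group beside the points. WT replicate 8 (square) falls among the dIEC values for most of these genes. In Dcn, dIEC replicate 1 (triangle) lies with the high WT values.

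Basement membrane genes had a median nearer to 0 than the fibrillar group. All 8 of 8 were below 0 (median -0.53), 6 at an unadjusted p under 0.05 and 0 past the adjusted threshold (edgeR adjusted p = 0.427 to 0.51). Col4a1, a chain of the type IV collagen network (chromosome 8 from 11198423 to 11312826, minus strand), had 63.7 to 149 CPM in WT (median 119) and 64.2, 79.6, 99.6, 113 and 63.2 CPM in dIEC (log2 fold change -0.46 ± 0.22). Col4a2, the chain that joins it in the same helix, had 40.1 to 102 CPM in WT (median 78.3) and 38.6, 54.5, 67.2, 76.9 and 42.4 CPM in dIEC and the highest p of the group (log2 fold change -0.43 ± 0.24, unadjusted p = 0.0919). For both genes, dIEC replicates 5 and 6 lay above WT replicate 12, so the groups overlapped widely.

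Col15a1, a collagen bound to the outside of basement membranes, had a fold change further from 0 than the network genes. It had 5.04 to 18 CPM in WT (median 11.5) and 2.60, 5.61, 5.29, 8.55 and 4 CPM in dIEC, a 2.26-fold difference of means and the lowest p of the group (log2 fold change -1.19 ± 0.33, unadjusted p = 0.00307, edgeR adjusted p = 0.427, and 0.0399 without WT replicate 8). Its relative Col18a1, the source of endostatin, had a log2 fold change of -0.77 ± 0.30. Lama2, the laminin alpha chain of muscle, nerve and mesenchyme, had 17.3 to 38 CPM in WT (median 30.6) and 16.6, 15.3, 22.4, 28.2 and 15.6 CPM in dIEC. In dIEC replicates 1, 3 and 11 Lama2 was below every WT library, while dIEC replicates 5 and 6 lay within the WT range (log2 fold change -0.56 ± 0.22). Nid1, which links laminin to type IV collagen, had 22.4 to 58.8 CPM in WT (median 46.8) and 28.2, 30.5, 34.6, 38.1 and 25.7 CPM in dIEC (log2 fold change -0.49 ± 0.21). The laminin chains Lamb1 and Lamc1 stood at -0.59 ± 0.23 and -0.39 ± 0.17. Without WT replicate 8, Col15a1, Lamb1 and Nid1 passed the adjusted threshold.

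Small proteoglycans differed among themselves. All 5 of 5 lay below 0 (median -0.67), with 3 at an unadjusted p under 0.05 and 0 past the adjusted threshold. Lum, lumican, which regulates the assembly of collagen fibrils (chromosome 10 from 97565128 to 97572703, plus strand), had 6.64 to 30.9 CPM in WT (median 20.9) and 7.66, 10.7, 9.16, 9.18 and 7.59 CPM in dIEC. The dIEC libraries were close together, and each lay below every WT library except replicate 8. Lum had the lowest p of all 42 genes (log2 fold change -1.20 ± 0.32, unadjusted p = 0.00236, edgeR adjusted p = 0.427, and 0.0208 without WT replicate 8). The edgeR adjusted p of Lum was 0.639 without dIEC replicate 1, and 0.0565 with that library and WT replicate 8 both left out. Dcn, decorin, which binds fibrils and growth factors, had 48.7 to 126 CPM in WT (median 103) and 118, 67, 74.7, 74.1 and 65.6 CPM in dIEC. The value of dIEC replicate 1 lay among the highest WT values, and the log2 fold change was -0.26 ± 0.23, -0.44 without that library, -0.39 without WT replicate 8 and -0.16 without WT replicate 4.

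Dpt, dermatopontin, a small protein that binds decorin and collagen, had 11.3 to 39.1 CPM in WT (median 29.6) and 13.7, 17.6, 16.3, 21.2 and 16.4 CPM in dIEC. As for Lum, each dIEC library was below every WT library but replicate 8 (log2 fold change -0.73 ± 0.24, edgeR adjusted p = 0.427, and 0.0304 without WT replicate 8). With Timp2 these were the 3 of 42 matrix genes with that pattern, against 1.6% of all genes. Ogn, osteoglycin, had 22.3 to 69.2 CPM in WT (median 43.4) and 21.5, 33.9, 35.2, 22.2 and 25 CPM in dIEC (log2 fold change -0.67 ± 0.24). Bgn, biglycan, stood at -0.39 ± 0.24.

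Among elastic fibre genes 6 of 6 lay below 0 (median -0.57), 3 at an unadjusted p under 0.05 and 0 past the adjusted threshold. Eln, elastin, had 5.44 to 21.9 CPM in WT (median 18) and 7.08, 10.7, 13.8, 7.91 and 6.08 CPM in dIEC (log2 fold change -0.81 ± 0.34). Fbn1, fibrillin, whose microfibrils carry the elastin, had 21.4 to 68.8 CPM in WT (median 52.9) and 30.3, 30.1, 33.8, 40.8 and 23.1 CPM in dIEC, the lowest p of the group (log2 fold change -0.66 ± 0.25, edgeR adjusted p = 0.427, and 0.035 without WT replicate 8). An antisense gene, Gm9913, covers 20.1% of the annotated exon bases of Fbn1, and since the strand setting of the counting is not known here, reads of both cannot be told apart. Mfap4, a microfibril glycoprotein, stood at -0.64 ± 0.29, and the fibulins Fbln1 and Fbln2 at -0.35 ± 0.19 and -0.50 ± 0.24, Fbln1 being -0.21 without dIEC replicate 1. Fbln5, a fibulin that helps place elastin on microfibrils, had the highest p of the group, with 2.39 to 7.52 CPM in WT (median 4.90) and 3.90, 2.69, 4.07, 5.54 and 4 CPM in dIEC (log2 fold change -0.24 ± 0.26, unadjusted p = 0.379), and every dIEC value lay within the WT range. The Fbln5 value was -0.069 without WT replicate 2, -0.104 without dIEC replicate 3, -0.38 without dIEC replicate 6 and -0.36 without WT replicate 8.

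Enzymes and helpers of collagen crosslinking and maturation were mixed. All 4 of 4 were below 0, from -0.91 to -0.03, 2 at an unadjusted p under 0.05 and 0 past the adjusted threshold. Loxl1, a lysyl oxidase that acts on elastin, had 2.12 to 8.05 CPM in WT (median 5.84) and 3.03, 2.58, 3.05, 2.85 and 2.76 CPM in dIEC. The dIEC values were nearly equal, with an SD of 0.197 CPM, while those of WT were spread around them, 4 above and 2 below (log2 fold change -0.91 ± 0.33). Lox, the founding lysyl oxidase, had 2.92 to 8.36 CPM in WT (median 5.46) and 10.7, 4.27, 3.26, 6.01 and 2.21 CPM in dIEC. It was highest of all libraries in dIEC replicate 1 and lowest in dIEC replicate 11, and its log2 fold change was -0.03 ± 0.35, or -0.46 without dIEC replicate 1.

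Serpinh1, the collagen chaperone HSP47 of the endoplasmic reticulum, had 14.9 to 31.5 CPM in WT (median 26.8) and 4.05, 18.5, 23.2, 26.3 and 16.3 CPM in dIEC. Apart from dIEC replicate 1, its dIEC values lay within the WT range (log2 fold change -0.48 ± 0.37, unadjusted p = 0.222, and -0.22 without dIEC replicate 1). Pcolce, which enhances removal of the procollagen C-terminal propeptide, had 6.37 to 14.3 CPM in WT (median 11) and 4.33, 8.53, 8.15, 10.4 and 7.04 CPM in dIEC (log2 fold change -0.52 ± 0.23).

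Of the matricellular and turnover genes 8 of 9 lay below 0 (median -0.52), 5 at an unadjusted p under 0.05 and 0 past the adjusted threshold. Sparc, a glycoprotein that binds collagen and aids its deposition, had 25.6 to 64.4 CPM in WT (median 51.2) and 15.9, 28.9, 31.6, 36.9 and 22.2 CPM in dIEC and the lowest p of the group (log2 fold change -0.82 ± 0.26, unadjusted p = 0.00865). Its relative Sparcl1 stood at -0.65 ± 0.24. Postn, periostin, which is made by fibroblasts next to epithelium and in scars, had 26.5 to 84.9 CPM in WT (median 59.5) and 16.6, 29.1, 41.7, 44.3 and 32.4 CPM in dIEC (log2 fold change -0.82 ± 0.29). Tnc, tenascin-C, a glycoprotein induced in wounds, had 44.3 to 114 CPM in WT (median 93.4) and 33.7, 57.7, 92, 75.3 and 46.3 CPM in dIEC. All dIEC libraries but replicate 1 lay within the WT range for Tnc, and the log2 fold change was -0.52 ± 0.27.

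The genes Fn1 and Thbs1 showed almost no mean difference. Fn1, fibronectin, on which other matrix proteins assemble (chromosome 1 from 71585520 to 71653200, minus strand), had 143 to 293 CPM in WT (median 179) and 118, 191, 238, 270.1 and 158 CPM in dIEC. The means were 199.9 ± 58.8 in WT and 195 ± 60.6 in dIEC, and the log2 fold change was -0.03 ± 0.23 (edgeR adjusted p = 0.97). Thbs1, thrombospondin 1, an activator of latent TGF-beta, had 18.1 to 48.3 CPM in WT (median 38) and 26.2, 23.4, 78.4, 28.3 and 35.5 CPM in dIEC. Its log2 fold change of 0.04 ± 0.32 had the highest p of the group and rested on dIEC replicate 5, without which it was -0.39. With library totals as the only scaling, under which the median of all genes was -0.22, the Thbs1 value was -0.28 and that of Fn1 -0.27. Under that scaling 42 of the 42 genes lay below that median.

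Mmp2, a gelatinase of fibroblasts, had 12.1 to 29.8 CPM in WT (median 24.6) and 15.6, 14, 15.1, 17.7 and 12.7 CPM in dIEC (log2 fold change -0.55 ± 0.22). The inhibitor Timp2, which also takes part in activating Mmp2, stood at -0.44 ± 0.20 (edgeR adjusted p = 0.455, and 0.0421 without WT replicate 8). Timp3, an inhibitor held in the matrix, had 34.6 to 71.9 CPM in WT (median 51) and 58.5, 41.2, 47, 41 and 36 CPM in dIEC (log2 fold change -0.26 ± 0.18, and -0.15 without WT replicate 2). Exons of Syn3 on the opposite strand cover 21.3% of the annotated exon bases of Timp3, so this value is uncertain.

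**Figure D4:**
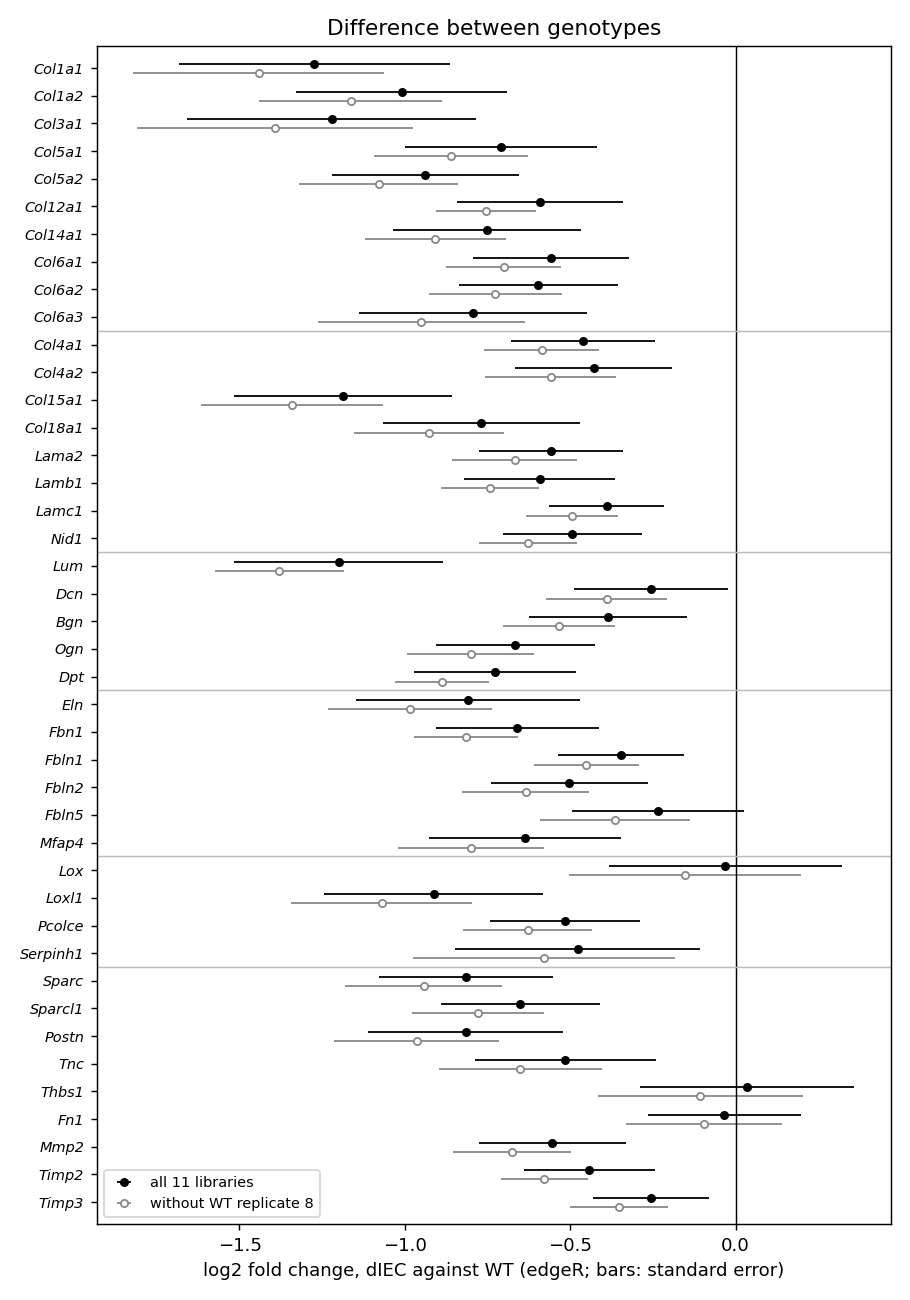
Log2 fold change, dIEC against WT, of the 42 matrix genes in order of role (points, with bars for the standard error), from all 11 libraries (filled) and without WT replicate 8 (open). All points but that of Thbs1 lie below 0 with all libraries, from -1.27 for Col1a1 to 0.04 for Thbs1, and every open point lies to the left of its filled one.

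For a rough comparison between genes, levels were divided by transcript length (CPM per kilobase of the principal transcript in GENCODE vM21). The annotation used for counting is not known, and the order depends on the length taken. For Dcn the principal transcript has 1.758 kilobases, while its annotated exons cover 5838 bases. In WT the order was led by Dcn at 54.2 ± 17.2, Sparcl1 at 45.2 ± 14.5, Col3a1 at 36.8 ± 17, Fn1 at 24 ± 7.07, Sparc at 20.7 ± 7 and Col1a2 at 20.4 ± 7.99 CPM per kilobase (mean ± SD, n = 6). Neighbours among these 6 differed by less than the larger of their SDs. The lowest were Fbln5 at 0.812 ± 0.299, Lox at 1.13 ± 0.39 and Loxl1 at 1.61 ± 0.791 CPM per kilobase. In dIEC Dcn and Sparcl1 were still the first and the second, at 45.4 ± 12.4 and 28.8 ± 8.29 CPM per kilobase (n = 5), Fn1 at 23.5 ± 7.29 preceded Col3a1 at 15.8 ± 7.20, and Col1a1 went from rank 14 in WT to rank 22. Col1a1, Col1a2 and Col3a1 together made up 17.2 ± 3.06% of the summed matrix CPM in WT (SD, range 13.5 to 21.4%) and 11.4 ± 3.18% in dIEC (range 6.18 to 14.5%).

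Ratios of genes within a library do not depend on how libraries are scaled, and 12 were compared between genotypes with two-sided exact permutation tests. None passed after Benjamini-Hochberg adjustment (0 of 12), and 5 had an unadjusted p under 0.05, each with an adjusted p of 0.0623. The ratios were chosen with earlier results of these data known, so these p-values are not independent evidence. Of the 5, all but Lum to Dcn have Col1a1 as numerator. The ratio of Lum to Dcn was 0.205 ± 0.0483 in WT and 0.117 ± 0.0338 in dIEC (exact p = 0.00866), and 4 of 5 dIEC libraries lay below every WT library. Col1a1 to Col4a1, fibril against basement membrane network, was 0.782 ± 0.199 in WT and 0.445 ± 0.137 in dIEC (exact p = 0.013). Col1a1 to Pdgfra, the receptor gene of fibroblasts, was 1.29 ± 0.246 in WT and 0.746 ± 0.361 in dIEC (exact p = 0.0173), and Col1a1 to Myh11, smooth muscle myosin, 0.0749 ± 0.03 in WT and 0.0385 ± 0.0116 in dIEC (exact p = 0.0216). The chains of type I collagen also differed in their mean ratio, Col1a1 to Col1a2 being 0.841 ± 0.0576 in WT and 0.684 ± 0.132 in dIEC (exact p = 0.026). Its log2 difference was -0.32, and -0.20 without dIEC replicate 1. Leaving that library out also moved Lum to Dcn from -0.83 to -0.63 and Col1a1 to Col4a1 from -0.84 to -0.62. Col1a1 to Pdgfra went from -0.93 to -0.61 and Col1a1 to Myh11 from -0.91 to -0.77. Of the 12 ratios 4 passed the adjusted threshold without WT replicate 8, 4 without WT replicate 12 and 5 without dIEC replicate 6, and 0 with any other library left out.

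Neighbouring genes and partner chains varied to unequal degrees. Col4a1 and Col4a2 lie head to head on chromosome 8, their annotated starts overlapping by 22 bases. Each varied over the libraries by 2.36-fold and 2.64-fold, but their ratio by only 1.14-fold (1.55 ± 0.0744 in WT and 1.51 ± 0.0838 in dIEC, exact p = 0.489). Col6a1 and Col6a2, on the same strand of chromosome 10 with 85161 bases between them, had ratios of 1.06 ± 0.0509 in WT and 1.13 ± 0.171 in dIEC (exact p = 0.519). Dcn and Lum are also neighbours on chromosome 10, 46984 bases apart and on the same strand, yet their ratio varied 4.14-fold. Col3a1 and Col5a2 lie tail to tail on chromosome 1, 24614 bases apart. Col3a1 to Col1a1, chains from different chromosomes, had a ratio of 2.16 ± 0.123 in WT and 2.25 ± 0.437 in dIEC (exact p = 0.788), a range of 1.65-fold while the genes themselves ranged 12.4-fold and 8.81-fold. The ratios of Col5a1 to Col5a2, Lamb1 to Lamc1, Mmp2 to Timp2 and Eln to Fbn1 had exact p = 0.108, 0.264, 0.589 and 0.615.

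**Figure D5:**
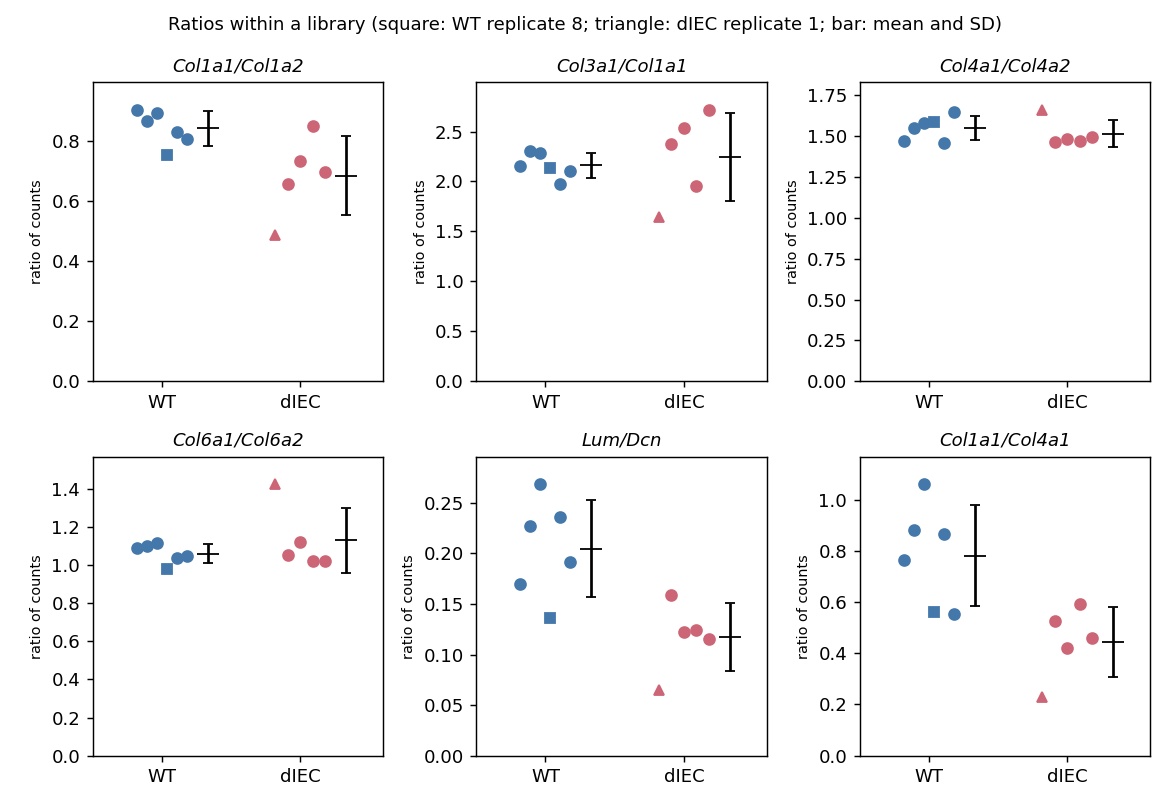
Ratio of counts of gene pairs within each library (linear axes from 0), WT in blue and dIEC in red, with the mean and SD of each group. Col4a1/Col4a2 is nearly flat, between 1.46 and 1.66, while Lum/Dcn and Col1a1/Col4a1 lie lower in dIEC, with dIEC replicate 1 (triangle) the lowest.

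Further matrix genes outside the list, also chosen with earlier results of these data known, were read from the same fit. Of 151 tested in 9 lists, 117 lay below 0, against 51.2% of all genes (median -0.35), and 0 passed edgeR's adjusted threshold. An unadjusted p under 0.05 was found for 38 that were lower and 3 that were higher, against 5.79% and 4.87% of all genes. The other collagens had 14 of 14 below 0 (median -0.48), 6 lower and 0 higher at an unadjusted p under 0.05. Col4a6, a type IV chain of smooth muscle basement membranes, had 4.45 ± 1.54 in WT and 2.10 ± 0.539 CPM in dIEC (log2 fold change -1.08 ± 0.27), and Col16a1, a collagen associated with fibrils, 10.6 ± 3.79 in WT and 5.73 ± 1 CPM in dIEC (-0.91 ± 0.25). The remaining basement membrane genes had 12 of 17 below 0 (median -0.42), 4 lower and 0 higher at an unadjusted p under 0.05. Nid2, the second nidogen, had 6.99 ± 1.36 in WT and 4.75 ± 0.453 CPM in dIEC (-0.57 ± 0.16), and Ntn1, netrin 1, 29.6 ± 6.42 in WT and 20.8 ± 4.74 CPM in dIEC (-0.51 ± 0.18).

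Other proteoglycans and their partners had 7 of 7 below 0 (median -0.44), 3 lower and 0 higher at an unadjusted p under 0.05. Vcan, versican, a large proteoglycan that binds hyaluronan, had 8.50 ± 3.53 in WT and 4.07 ± 1.44 CPM in dIEC (log2 fold change -1.10 ± 0.32), and Ecm2 4.86 ± 1.31 in WT and 2.92 ± 0.693 CPM in dIEC (-0.74 ± 0.22). Other elastic fibre genes had 11 of 13 below 0 (median -0.53), 5 lower and 0 higher at an unadjusted p under 0.05, led by Ltbp2, a microfibril protein, with 6.38 ± 2.21 in WT and 3.63 ± 1.47 CPM in dIEC (-0.82 ± 0.28), and the fibulin Fbln7 with 1.71 ± 0.518 in WT and 0.869 ± 0.403 CPM in dIEC (-0.97 ± 0.34). Genes of collagen modification had 17 of 23 below 0 (median -0.32), 4 lower and 1 higher at an unadjusted p under 0.05. P3h3, of the prolyl 3-hydroxylase family, had 4.11 ± 1.54 in WT and 2.26 ± 0.614 CPM in dIEC (-0.86 ± 0.29), and P4ha2, a catalytic subunit of prolyl 4-hydroxylase, 2.95 ± 0.582 in WT and 1.99 ± 0.394 CPM in dIEC (-0.57 ± 0.21). Other matricellular genes had 9 of 13 below 0 (median -0.44), 4 lower and 0 higher at an unadjusted p under 0.05, led by Matn2, matrilin 2, with 14 ± 3.94 in WT and 8.77 ± 2.32 CPM in dIEC (-0.68 ± 0.23), and Tnxb, tenascin-X, with 102 ± 34.6 in WT and 68.9 ± 17.5 CPM in dIEC (-0.57 ± 0.23). None of these genes passed the adjusted threshold with all libraries. Without WT replicate 8, 10 of the 151 did, all lower, against 0.671% of all genes lower and 1.35% higher.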

How the data were processed

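RNA of 11 distal ileum pieces was measured. Per the labels' protocols, it was extracted from Trizol with a Direct-zol kit and made into directional NEBNext Ultra libraries. The submitters' processing notes name TopHat2 and mm10. The authors deposited whole-number counts per gene symbol, with no normalization. Which tool, strand setting and annotation were used for counting is not given in the sources used here. A total of 1 row without a gene name (0.00778 to 0.0147% of counts) was left out. Replicates are the library numbers of the titles. Each library was taken as 1 mouse, and the tests set the difference between genotypes against the spread between libraries of a group. The labels give no cage or litter, so an effect of either may lie in that spread or in the difference between genotypes.

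In R 4.3.3, filterByExpr of edgeR 4.0.16 kept 15911 genes. TMM factors, robust quasi-likelihood F tests and Benjamini-Hochberg adjustment at 0.05 followed, fitted on all genes. Standard errors were taken as the absolute log2 fold change over the root of the F statistic. CPM are counts per 1000000 counts of the tested genes. Alternatives were limma 3.58.1 (voom), DESeq2 1.42.0, other scalings and filters, and each library left out. The fits were also run on simulated counts drawn for each gene on its own, a setting without the shared variation between libraries seen here. The members, lists, ratios and named genes were chosen with earlier results of these data known. Named were genes of a fixed set, the lowest and highest p in each role group, and the 2 lowest p in each further list. Symbols and coordinates follow GENCODE vM21 (GRCm38), which holds 99.2% of the symbols. Counts in protein-coding genes, Lars2 aside, numbered 1510296 to 3215574 in a library.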

Additional observations from a re-analysis of the deposited data

Results flagged for a closer look

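Some values lay far from the rest of their group, by a gap that was large for the range of the group (Dixon's 95% critical value). Of 112 groups of values examined 8 did so, and chance alone gives about 1 in 20. Of these, 5 belonged to dIEC replicate 1. Its Col6a3 level was 22.5 against 62.0 to 78.0 CPM in the other dIEC libraries, and its Fbln1 level 11.7 against 20.2 to 23.1 CPM. Its Dcn level was 118.0 against 65.6 to 74.7 CPM, on the high side. The ratio of Col4a1 to Col4a2 in this library was 1.66 against 1.46 to 1.49, and that of Col6a1 to Col6a2 1.43 against 1.02 to 1.12. In dIEC replicate 5, Thbs1 had 78.4 against 23.4 to 35.5 CPM and Fbln2 8.15 against 6.17 to 6.49 CPM in the others. In dIEC replicate 6, Col18a1 had 23.3 against 13.0 to 15.1 CPM. No WT value was this far from its group.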

How the results depend on the processing

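Over 20 other settings, 39 of the 42 matrix genes kept log2 fold changes below 0, and the median of the 42 ran from -0.73 to -0.49 with each library left out and was -0.85 with library totals alone. The number of matrix genes past the adjusted threshold was 0 to 10 with each library left out (10 without WT replicate 8, 0 otherwise) and 0 in all other settings, including DESeq2, limma-voom, DESeq2 size factors, other count filters and removal of ribosomal rows. Over all genes 1 passed with all libraries, 0 of them lower. With each library left out 1 to 319 passed, 0 to 106 of them lower, the highest without WT replicate 8. DESeq2 called 11, 2 of them lower, library totals alone 2, 1 of them lower, and leaving out both WT replicate 8 and dIEC replicate 1 gave 7. The last setting, and edgeR without its legacy dispersion estimate, were chosen after seeing the data. The planned legacy estimate is the default of the edgeR version used and so is the reported fit. H2-Ab1 passed with DESeq2 (-1.67), with library totals alone (-1.90) and without WT replicate 8, its log2 fold change running from -1.87 to -1.55 with each library left out. Signs turned for Lox, Thbs1 and Fn1, which lay near 0 with all libraries. With each library left out Lox ran from -0.46 to 0.17, Thbs1 from -0.39 to 0.18 and Fn1 from -0.18 to 0.10, and Thbs1 was -0.28 with library totals alone and -0.06498 by limma-voom. With both WT replicate 8 and dIEC replicate 1 left out the log2 fold change of Thbs1 was -0.00156 and Fn1 0.0395, while Lox was -0.58, Dcn -0.57 and Timp3 -0.47. Of the ratios, 0 to 5 of 12 passed with each library left out. The log2 difference then ran from -0.041 to 0.14 for Col3a1/Col1a1, from -0.00723 to 0.11 for Col6a1/Col6a2 and from -0.25 to 0.0215 for Eln/Fbn1. The cause of these changes was not tested. No paired analysis was possible because the labels give no pairs, cages or litters. Mfap5 did not pass the filter on low counts.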

Other observations

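Proteases, receptors and growth factor genes of the matrix had medians from -0.44 to -0.07 by list. Over all genes 51.2% lay below 0, and 5.79% were lower and 4.87% higher at an unadjusted p under 0.05. Proteases and inhibitors had 17 of 20 below 0 (median -0.44), 5 lower and 0 higher at an unadjusted p under 0.05. The lowest p were those of Adamts10, a protease linked to fibrillin microfibrils, with 10.5 ± 3.31 in WT and 6.30 ± 1.46 CPM in dIEC (log2 fold change -0.73 ± 0.22), and Mmp19, a matrix metalloproteinase, with 4.73 ± 1.34 in WT and 2.78 ± 0.88 CPM in dIEC (-0.81 ± 0.25). Matrix receptors had 18 of 25 below 0 (median -0.16), 6 lower and 0 higher at an unadjusted p under 0.05. Itga11, the integrin chain of fibroblasts that binds fibrillar collagen, had 5.17 ± 1.40 in WT and 3.14 ± 0.433 CPM in dIEC (-0.71 ± 0.21), and Itgb8, an integrin chain that activates latent TGF-beta, 2.52 ± 0.591 in WT and 1.38 ± 0.678 CPM in dIEC (-0.90 ± 0.29). The TGF-beta and PDGF list had 12 of 19 below 0 (median -0.07). At an unadjusted p under 0.05 it had 1 lower and 2 higher, counts too small to set apart from the shares of all genes. Its lowest p belonged to genes with positive fold changes: Skil, an inhibitor of SMAD signalling, with 47.2 ± 5.36 in WT and 66.2 ± 18.1 CPM in dIEC (0.49 ± 0.17), and Smad4, the common SMAD, with 43.4 ± 7.25 in WT and 66.4 ± 33.5 CPM in dIEC (0.62 ± 0.24). The summed level of the TGF-beta and PDGF list was 481 CPM in dIEC replicate 1. It was 333 to 377 CPM in the other dIEC libraries and 311 to 379 CPM in WT. How far the Skil and Smad4 values rest on dIEC replicate 1 was not tested. In these 3 lists 0 genes passed edgeR's adjusted threshold, and DESeq2 called 0 of them.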
